A study of Brassica napus with 33 samples.

Results

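Root transcriptomes of oilseed rape (Brassica napus cv. Trezzor, wild type) deprived of nitrogen (N) were compared directly with those of plants deprived of calcium (Ca), without passing through the control. The 6 libraries, 3 for N deprivation and 3 for Ca deprivation, were chosen by their sample titles out of the 33 of the series, and every gene that the study lists as an ion transporter (269 tested here and 33 too low to test, under 21 group names after the ion carried) was followed through the comparison. All plants were grown hydroponically on a complete solution for 24 days. N-deprived and Ca-deprived plants then spent 10 days on a solution lacking that element, and control plants stayed on the complete solution for the same time. The study reports that photosynthesis fell significantly under N but not under Ca deprivation. By its values, uptake of the missing element was cut less under N than under Ca deprivation. Roots of 2 plants were pooled in each replicate, messenger RNA was sequenced as stranded paired-end libraries, and a library thus measures a mixture of root cell types. What replaced the N or Ca salts in the deprived solutions is not given in the sources used here, and the labels give more than 1 set of growth temperatures.

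Nitrogen enters roots mostly as nitrate or ammonium, through nitrate transporters of the major facilitator superfamily with their Nar2 partner proteins and through ammonium transporters, and is then built into glutamine and glutamate. Calcium crosses root membranes through channels and is removed from the cytosol by Ca-ATPases and by Ca/proton exchangers (CAX) of the vacuole, and it also serves as a signal read by EF-hand proteins and as a cross-link of pectin in the cell wall. Sulphate uptake and reduction feed cysteine synthesis, which also consumes reduced nitrogen, so both deprivations were also compared over the sulphur genes that the study tabulates.

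Counts on genes ran from 10933693 to 15162012 per library under N deprivation (median 13953898), from 10732993 to 17760545 under Ca deprivation (median 14526212) and from 12751467 to 13847651 in the control (median 13484189). Log2 values correlated at 0.966 to 0.973 among the N libraries and at 0.965 to 0.979 among the Ca libraries over 53094 genes, against 0.894 to 0.907 between an N and a Ca library, and the first principal component (42.2% of the variance) set the 3 N libraries apart from the 3 Ca libraries. On the second (17.2%), Ca deprivation replicate 1 and, less far out, N deprivation replicate 3 lay on the opposite side from the other 4 libraries. Known markers of root cell types could not be checked, because the gene identifiers are not paired with their names. Values are given as CPM, that is counts scaled to a common library size after TMM normalization, which do not account for gene length and are therefore compared between libraries and not between genes.

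Of the 101040 annotated genes, 53094 were tested, and 10607 of these (20.0%) were differentially expressed (DEGs) between N and Ca deprivation by the quasi-likelihood test of edgeR, with 0.05 as the limit of the adjusted p. Of these, 4723 genes (8.90% of those tested) were higher under N deprivation and 5884 genes (11.1%) were lower under N than under Ca deprivation. The median absolute log2 fold change was 1.09 among the DEGs and 0.29 among all genes tested, and 5843 genes (11.0%) were DEGs that also differed by 1 or more on the log2 scale. In 38.9% of the genes tested all 3 N libraries lay above or all 3 below the Ca libraries. Without Ca deprivation replicate 2, the number of DEGs higher under N deprivation was 3055.

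The direction of the transport DEGs differed between ion groups. Of the 269 listed genes that passed the filter on low counts, 142 were DEGs (52.8%), with 84 higher and 58 lower under N than under Ca deprivation, and the median log2 fold change of the 269 was 0.16, against 0.00 for all genes. The study drew this list from genes that had changed against the control in at least 1 deprivation of these same libraries, so the high share of DEGs is not independent of how the genes were listed. Genes of the N group (18 higher, 2 lower), the Ca group (20 and 6), the K group (12 and 2), the sodium symporters (7 and 2) and the Cl group (4 and 1) were more often higher under N deprivation. The balance ran the other way in the S group (3 higher, 16 lower), in the zinc/iron group (1 and 5) and in the Fe/Mn, Cu and Cd groups, with 5, 4 and 4 genes lower under N and 0 higher. In the P group 6 genes were higher and 6 lower. The other 33 listed genes did not reach the filter. They had at most 1.6 CPM in any of the 6 libraries, and 17 of them averaged above 1 CPM in the control.

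**Figure D1:**
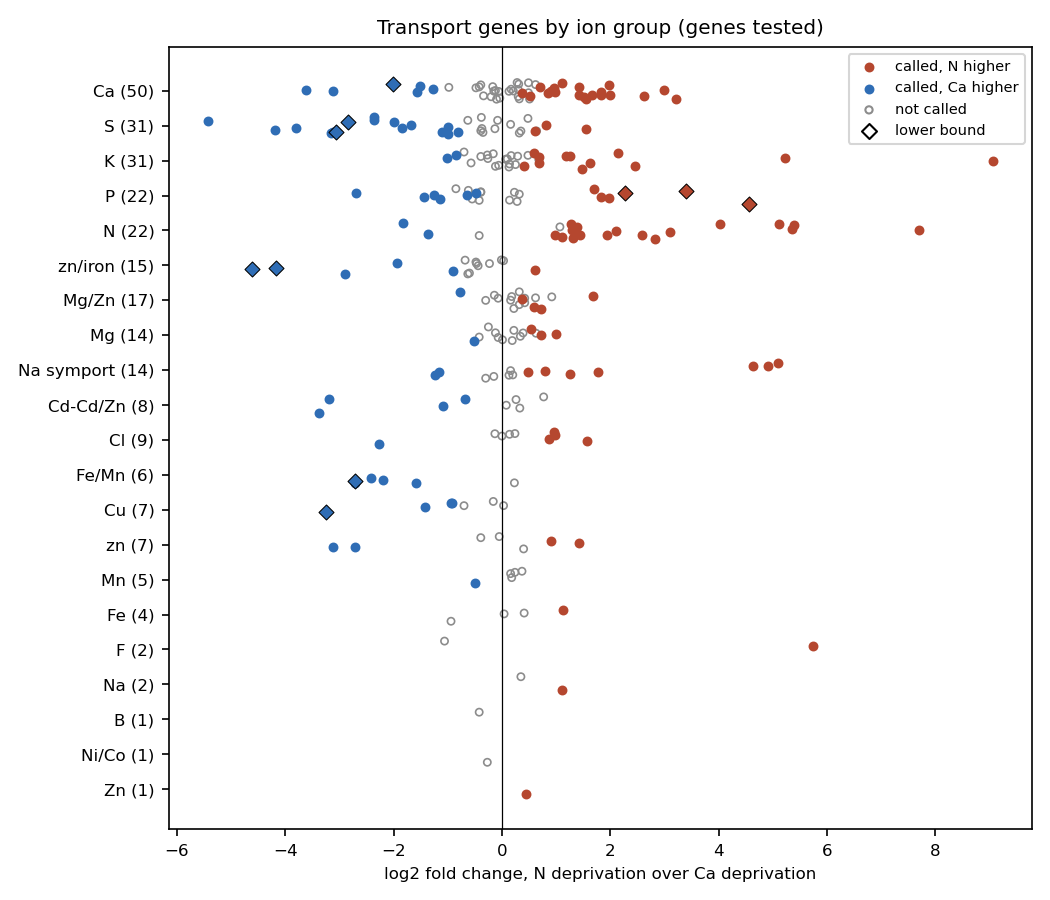
Log2 fold change (N deprivation over Ca deprivation) of each of the 269 tested transport genes, by ion group, with the number tested in brackets. Filled points are DEGs, open points are not, and diamonds are lower bounds for genes with at most 3 counts in every library of a deprivation. DEGs of the N group lie mostly to the right of 0 (18 of 20), those of the S group mostly to the left (16 of 19) and those of the Fe/Mn, Cu and Cd groups wholly to the left.

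Set beside the control, most transport genes higher under N than under Ca deprivation lay below it under Ca deprivation. Of the 84 transport genes higher under N than under Ca deprivation, 63 were below the control under Ca deprivation and 0 above it, while under N deprivation 16 were above the control, 7 below and 61 not different from it. Of the 58 genes lower under N than under Ca deprivation, 33 were below the control under N deprivation and 1 above it, while under Ca deprivation 22 were above the control, 5 below and 31 not different. Over all genes, 9.00% were above and 11.1% below the control under N deprivation, and 12.6% were above and 13.9% below it under Ca deprivation. Among all genes, 2608 of the 4723 higher under N than under Ca deprivation were below the control under Ca deprivation. Of the 5884 lower, 1888 were below the control under N deprivation and 2545 above it under Ca deprivation. There the second count was the larger, whereas among the transport genes the first was (33 against 22). The N, Ca and control libraries enter more than 1 of these comparisons, so the counts describe where the levels lie and are not separate evidence. The number of DEGs between N deprivation and the control, 11362, fell by more than 1.5 times without N deprivation replicate 3 (6404) or control replicate 2 or 3 (7304 and 7542).

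Of the 22 N transport genes tested, 20 were DEGs, with a median log2 fold change of 1.42. The 8 major facilitator genes, from the superfamily that holds the plant nitrate transporters, were all higher under N deprivation, with log2 fold changes of 0.98 to 7.69. BnaA08g24500D had 28.7, 29.4 and 30.3 CPM under N deprivation, 0.0871, 0 and 0.332 CPM under Ca deprivation and 152, 80.5 and 90.8 CPM in the control. The N libraries lay far above the Ca libraries and still below every control (log2 fold change 7.69 ± 0.38 (SE), adjusted p = 2.2e-05). BnaC03g56990D had 51.2, 50.7 and 58 CPM under N deprivation, 1.22, 1.68 and 0.798 CPM under Ca deprivation and 255, 306 and 226 CPM in the control. It showed the same order of the 3 conditions, at 5.39 ± 0.21 between the deprivations (adjusted p = 9.38e-06). BnaC08g43370D, with 14.2, 7.26 and 13.4 CPM under N deprivation, against 0.61, 0 and 0.332 CPM under Ca deprivation, was called between the deprivations and between Ca deprivation and the control but not between N deprivation and the control.

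All 5 Nar2 genes, whose proteins are needed by high affinity nitrate transporters at the plasma membrane, were higher under N than under Ca deprivation, by 1.11 to 2.1 on the log2 scale. BnaC09g26540D, the most divided of them, had 33.9, 25.6 and 33.8 CPM under N deprivation and 7.75, 6.41 and 7.64 CPM under Ca deprivation, with 26.1, 14.7 and 14.3 CPM in the control (2.1 ± 0.15, adjusted p = 8.33e-05). The 5 genes were lower under Ca deprivation than in the control, and none differed between N deprivation and the control by the test over all 10-day libraries, where their log2 fold changes were -0.30 to 0.76.

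The ammonium transporters, which import ammonium across the plasma membrane, split. Of 8 tested, 5 were higher and 2 lower under N than under Ca deprivation. BnaC03g74280D had 5.92, 8.19 and 8.99 CPM under N deprivation and 0.871, 1.03 and 1.33 CPM under Ca deprivation (2.82 ± 0.25, adjusted p = 0.00017), against 8.92, 11.7 and 10.3 CPM in the control. In the opposite direction, BnaA09g00320D had 11.8, 7.26 and 8.1 CPM under N deprivation, 29.1, 28.6 and 36.8 CPM under Ca deprivation and 25.9, 27.8 and 32.6 CPM in the control (-1.82 ± 0.19, adjusted p = 0.000398). BnaCnng01740D followed it, with 4.18, 4.6 and 3.39 CPM under N deprivation, 11.1, 9.62 and 10.4 CPM under Ca deprivation and 11.4, 7.97 and 9.41 CPM in the control. In both genes N deprivation was the condition that lay below the control. The eighth, BnaC04g07090D, had a log2 fold change of 1.07 ± 0.33 and did not pass (adjusted p = 0.0508).

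**Figure D2:**
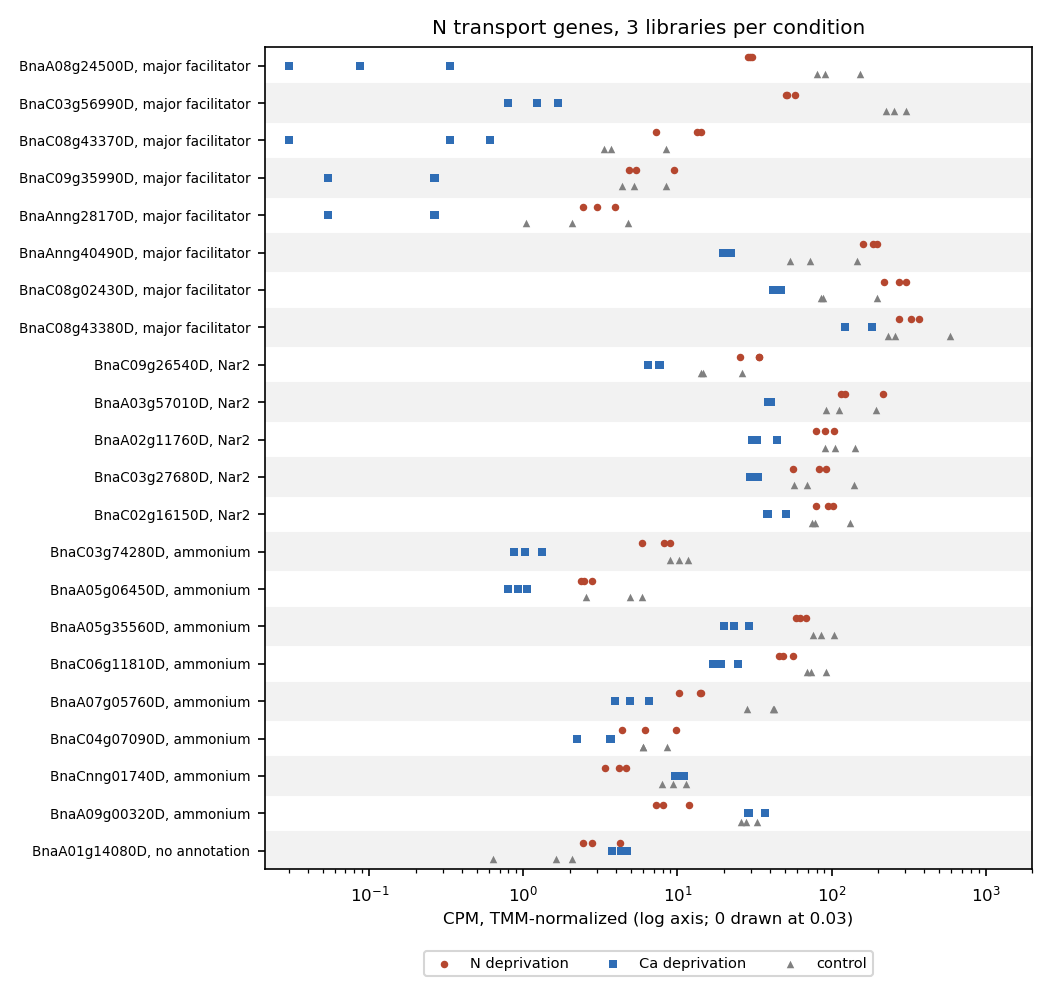
CPM (log axis) of the 22 tested N transport genes in each of the 3 N-deprived, 3 Ca-deprived and 3 control libraries, 1 point per library, grouped by annotation. The Ca libraries lie below the N libraries in every major facilitator and Nar2 gene, and above them in the ammonium transporters BnaA09g00320D and BnaCnng01740D.

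Among the 50 Ca transport genes tested, 26 were DEGs, and N deprivation was the higher condition in 20. The Ca/proton exchangers, which load Ca into the vacuole, gave 5 DEGs of 7 tested, all higher under N deprivation. BnaA04g21850D had 23.6, 20.9 and 29 CPM under N deprivation, 3.05, 1.68 and 3.26 CPM under Ca deprivation and 15.7, 6.52 and 9.78 CPM in the control (3.22 ± 0.24, adjusted p = 9.16e-05), and differed from the control in both deprivations, upwards without N and downwards without Ca. Of 5 tested genes that join an EF-hand to a sodium/calcium exchanger region, 3 were higher under N deprivation. BnaCnng29300D had 109, 117 and 80.6 CPM under N deprivation, 19.9, 13.6 and 16 CPM under Ca deprivation and 223, 220 and 55.9 CPM in the control (2.63 ± 0.19, adjusted p = 8.08e-05). The control libraries of this gene were spread widely, yet all lay above the Ca libraries. Genes of ion channels with EF-hands were higher under N deprivation in 3 of 4.

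The P-type ATPases of the Ca group moved less as a set, with 8 DEGs of 24 tested and a median log2 fold change of 0.04. In the subfamily annotated IIB, the Ca pumps stimulated by calmodulin, 3 of 13 were DEGs (23.1%), near the 20.0% of all genes. In the subfamily annotated IIIA, the proton pumps of the plasma membrane, 5 of 8 were. Of these, BnaA09g38390D was higher under N deprivation (5.05, 4.46 and 1.61 CPM, against 0.697, 0.38 and 0.332 CPM under Ca deprivation) and BnaA08g13170D lower (1.31, 0.666 and 1.55 CPM, against 3.74, 4.29 and 2.39 CPM under Ca deprivation). The second rested on Ca deprivation replicate 2, without which its log2 fold change was -1.37 and no longer passed.

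Genes annotated as coiled-coil domain containing proteins, the family of the mitochondrial Ca uniporter, were divided, with 3 higher and 2 lower of 8 tested. BnaAnng35090D had 2.53, 3.86 and 5 CPM under N deprivation, 7.93, 9.62 and 10.2 CPM under Ca deprivation and 3.32, 1.37 and 2.82 CPM in the control (-1.27 ± 0.23, adjusted p = 0.00601), a difference that missed the threshold when the other conditions of the series shared the fit. BnaAnng35100D, a gene of the Ca group without annotation, had 1.83, 2.8 and 3.16 CPM under N deprivation and 6.71, 6.57 and 9.31 CPM under Ca deprivation, with 2.76, 0.857 and 2.15 CPM in the control. In both genes Ca deprivation lay above N deprivation and control alike. It may not be particular to Ca, since Mg deprivation averaged 9.73 ± 6.95 CPM for BnaAnng35090D and 7.26 ± 4.09 CPM for BnaAnng35100D (SD). The Mg libraries were spread widely, and their difference from the control was not tested here.

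The largest change among the transport genes off the count floor was in potassium. BnaA07g16500D, of the KUP/HAK/KT family of K transporters, had 182, 229 and 238 CPM under N deprivation and 0.174, 0.652 and 0.266 CPM under Ca deprivation, with 267, 180 and 133 CPM in the control (9.06 ± 0.30, adjusted p = 3.79e-06). BnaC06g15440D had 466, 523 and 571 CPM under N deprivation, 13.1, 14.4 and 14.2 CPM under Ca deprivation and 697, 473 and 388 CPM in the control (5.22 ± 0.15, adjusted p = 2.76e-06). In both genes the N libraries fell within the range of the control, and Ca deprivation was far below. In all, 11 of 24 tested genes of the family were higher and 2 lower under N deprivation. The lower ones were BnaC02g19780D (6.18, 7.26 and 6.67 CPM, against 12.8, 15.9 and 11.9 CPM under Ca deprivation) and BnaA02g14820D (4.88, 4.2 and 6.13 CPM, against 9.67, 10.3 and 7.44 CPM), and the second passed neither without Ca deprivation replicate 2 nor without N deprivation replicate 1 or 2.

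Of 14 sodium symporters tested, 7 were higher and 2 lower under N deprivation. BnaC09g18770D, a sodium/solute symporter from the family that includes the urea transporter DUR3 of Arabidopsis, had 104, 115 and 125 CPM under N deprivation, 2.79, 3.42 and 3.66 CPM under Ca deprivation and 134, 109 and 104 CPM in the control (5.10 ± 0.15, adjusted p = 2.76e-06). BnaA02g23880D, also annotated as a sodium/solute symporter, was lower under N deprivation, with 2.09, 1.4 and 1.61 CPM, against 4.27, 3.48 and 3.52 CPM under Ca deprivation. All 4 genes of that annotation were DEGs, 2 in each direction.

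Most DEGs among the sulphate transporters went the other way. Of 31 S transport genes tested, 16 were lower and 3 higher under N than under Ca deprivation, with a median log2 fold change of -0.82. BnaA07g33860D, listed as SULTR1.2, had 0.0871, 1.33 and 0.179 CPM under N deprivation, 18.2, 23.5 and 30 CPM under Ca deprivation and 60.6, 26.1 and 52.1 CPM in the control (-5.42 ± 0.52, adjusted p = 0.00025). BnaC06g38480D, the other SULTR1.2 gene, had 4.79, 5.66 and 2.98 CPM under N deprivation, 72.6, 79.6 and 89.5 CPM under Ca deprivation and 235, 102 and 195 CPM in the control (-4.19 ± 0.22, adjusted p = 2.37e-05). In Arabidopsis the SULTR1 proteins take up sulphate at the root surface. The SULTR1.1 genes BnaA02g10510D and BnaC02g14670D had at most 3 counts in every N library. Against this floor the Ca libraries, at 1.47 to 2.46 CPM, were at least 7.13-fold higher for the first and, at 1.99 to 2.35 CPM, at least 8.39-fold higher for the second.

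The S group held 3 exceptions. BnaC03g09670D had 3.83, 4 and 4.23 CPM under N deprivation, 1.22, 1.74 and 1.06 CPM under Ca deprivation and 1.34, 0.257 and 0.963 CPM in the control (1.55 ± 0.24, adjusted p = 0.00239). BnaC07g32580D, whose annotation also holds a ribonucleoprotein LSM domain, had 28.2, 30.8 and 31 CPM under N deprivation, against 16.5, 18 and 16.5 CPM under Ca deprivation (0.81 ± 0.10). The remaining one, BnaC02g24710D, was chosen after its values were seen and had a log2 fold change of 0.61 ± 0.14.

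In the table of sulphur genes drawn up by the study, most DEGs were also lower under N deprivation. It shares sulphate transporter genes with the S group, among them BnaA07g33860D and BnaC06g38480D, so the counts of these lists overlap. Of its 60 genes, 54 were tested and 30 were DEGs (55.6%), 27 of them lower and 3 higher under N than under Ca deprivation, with a median log2 fold change of -0.49. As with the transport list, the study had picked these genes from changes against the control in these libraries. It kept those changed in only 1 deprivation, or in the opposite direction in another, and lists none under Ca deprivation. All 7 genes annotated as PAPS reductase, the step that reduces activated sulphate, were lower under N deprivation, by -2.80 to -2.06. BnaA03g59800D had 14.5, 15.4 and 21.4 CPM under N deprivation, 94.8, 109 and 154 CPM under Ca deprivation and 93.2, 30.4 and 64.8 CPM in the control (-2.80 ± 0.22, adjusted p = 0.000113). All 3 genes of ATP sulfurylase, which activates sulphate, were lower too (-1.68 to -1.12), as was the 1 gene of glutathione synthase. Of the 11 APS kinase genes, 3 were lower (27.3%), near the 20.0% called over all genes.

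Against the control, 20 of the 27 sulphur genes lower under N than under Ca deprivation were below it under N deprivation and 0 above, and under Ca deprivation 1 was below, 3 above and 23 not different. Over all genes, 1888 of the 5884 lower under N than under Ca deprivation were below the control under N deprivation. The study lists 13 of the 27 under N deprivation, that is for their change against this control, so the count partly repeats how they were listed. Genes that it found changed in the same direction under Ca deprivation as well were left out of its list. The 23 not different there, and the parting of N from Ca deprivation in these genes, thus also partly repeat the listing. The 3 sulphur genes higher under N deprivation were the glutathione S-transferases BnaA09g14510D (5.22, 6.53 and 5.66 CPM, against 1.92, 2.34 and 1.73 CPM under Ca deprivation) and BnaA09g14520D (2.79, 3.26 and 2.2 CPM, against 1.13, 1.09 and 1.33 CPM) and the S-adenosylmethionine synthetase BnaA03g34510D (285, 236 and 224 CPM, against 131, 171 and 178 CPM). Glutathione S-transferases were divided, with 2 higher and 4 lower under N than under Ca deprivation of 11 tested. The call of BnaA09g14520D was lost without Ca deprivation replicate 2. That of BnaA03g34510D was lost without Ca deprivation replicate 1 or 2 and without N deprivation replicate 1 or 2.

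**Figure D3:**
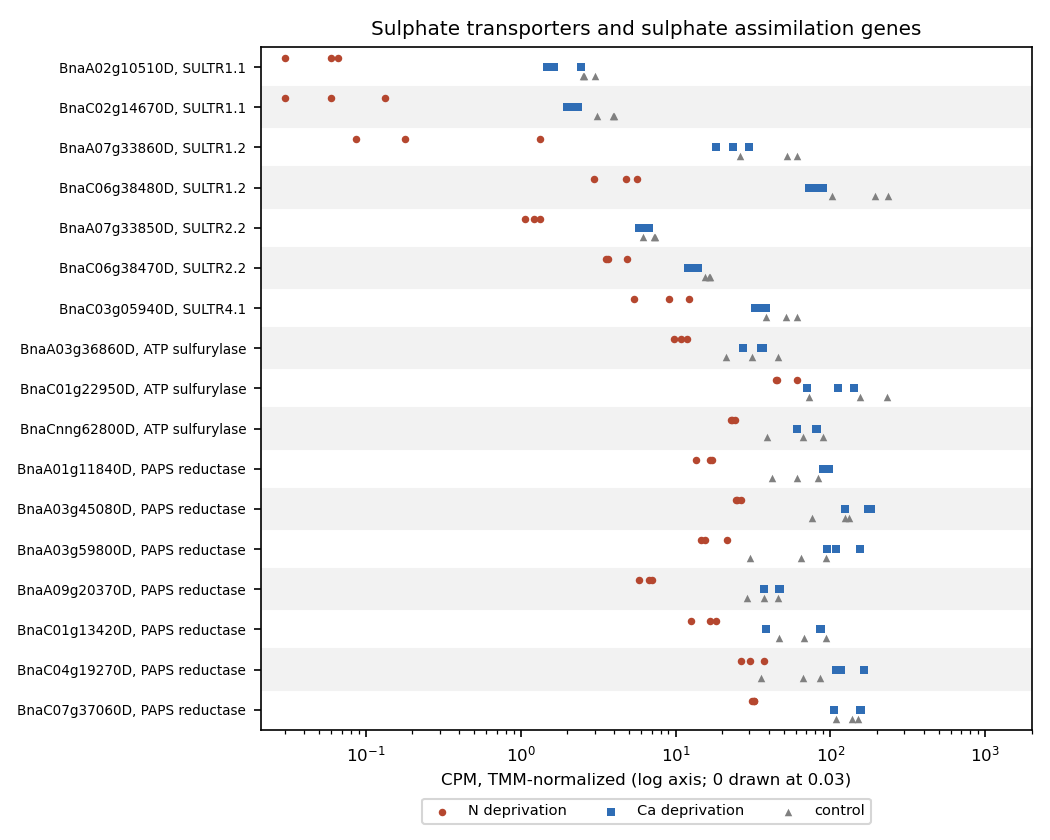
CPM (log axis) of the tested SULTR genes named in the sulphur table and of its ATP sulfurylase and PAPS reductase genes, 1 point per library, in N deprivation, Ca deprivation and control. In all 17 genes the 3 N libraries lie below the 3 Ca libraries.

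In the zinc/iron, Fe/Mn, Cu and Cd groups most DEGs were also lower under N than under Ca deprivation. The zinc/iron permeases (ZIP family), which import Zn and Fe, had 5 genes lower and 1 higher of 15 tested. BnaCnng46020D had 0 counts in the 3 N libraries, 5.75, 7.01 and 6.38 CPM under Ca deprivation and 41.2, 28.2 and 36.8 CPM in the control. Against a floor of 3 counts per library it was at least 24.4-fold lower under N deprivation, and BnaA01g35020D, at 0 in the N libraries and 4.44, 4.62 and 4.92 CPM under Ca deprivation, at least 17.9-fold lower. Both genes were below the control in both deprivations, so they part N from Ca deprivation by how far they fell. The exception, BnaA05g29570D, had 11.6, 13.7 and 12.6 CPM under N deprivation, against 8.27, 8.04 and 8.51 CPM under Ca deprivation (0.61 ± 0.12, adjusted p = 0.00997).

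In the Fe/Mn group, whose genes mostly carry the DUF125 domain of vacuolar iron transporters, 5 of 6 tested genes were lower under N deprivation. BnaA03g57720D had 0.348, 1.27 and 0.357 CPM under N deprivation, 1.31, 6.09 and 2.99 CPM under Ca deprivation and 33.3, 13.3 and 32.6 CPM in the control (-2.41 ± 0.64, adjusted p = 0.0307). The N and Ca values nearly met, and the call was lost when N deprivation replicate 1 or 3 or Ca deprivation replicate 2 or 3 was left out. Without N deprivation replicate 3 the group held 3 DEGs. Among Cu transporters 4 of 7 were lower, among them the Ctr gene BnaC09g34470D (1.39, 0.733 and 1.37 CPM, against 2.87, 3.37 and 2.99 CPM under Ca deprivation). In the Cd group the heavy-metal P-type ATPase BnaAnng30640D had 3.13, 3.86 and 2.98 CPM under N deprivation, 42.2, 24.1 and 37 CPM under Ca deprivation and 23.3, 7.55 and 11.3 CPM in the control (-3.37 ± 0.24, adjusted p = 7.36e-05), below the control without N and above it without Ca. Among the 7 Zn transport genes listed apart from the permeases, the P-type ATPase BnaC07g50890D was lower (-2.71 ± 0.34) and the cation efflux gene BnaA04g28640D higher (1.42 ± 0.22) under N deprivation. The Fe group held 1 DEG of 4 tested, the ferroportin BnaC04g06820D, named after its values were seen, with 2, 1.53 and 2.5 CPM under N deprivation and 1.22, 0.869 and 0.731 CPM under Ca deprivation (1.12 ± 0.31, adjusted p = 0.0349). Its call was lost without Ca deprivation replicate 2 or 3 or N deprivation replicate 1 or 3, and with DESeq2.

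**Figure D4:**
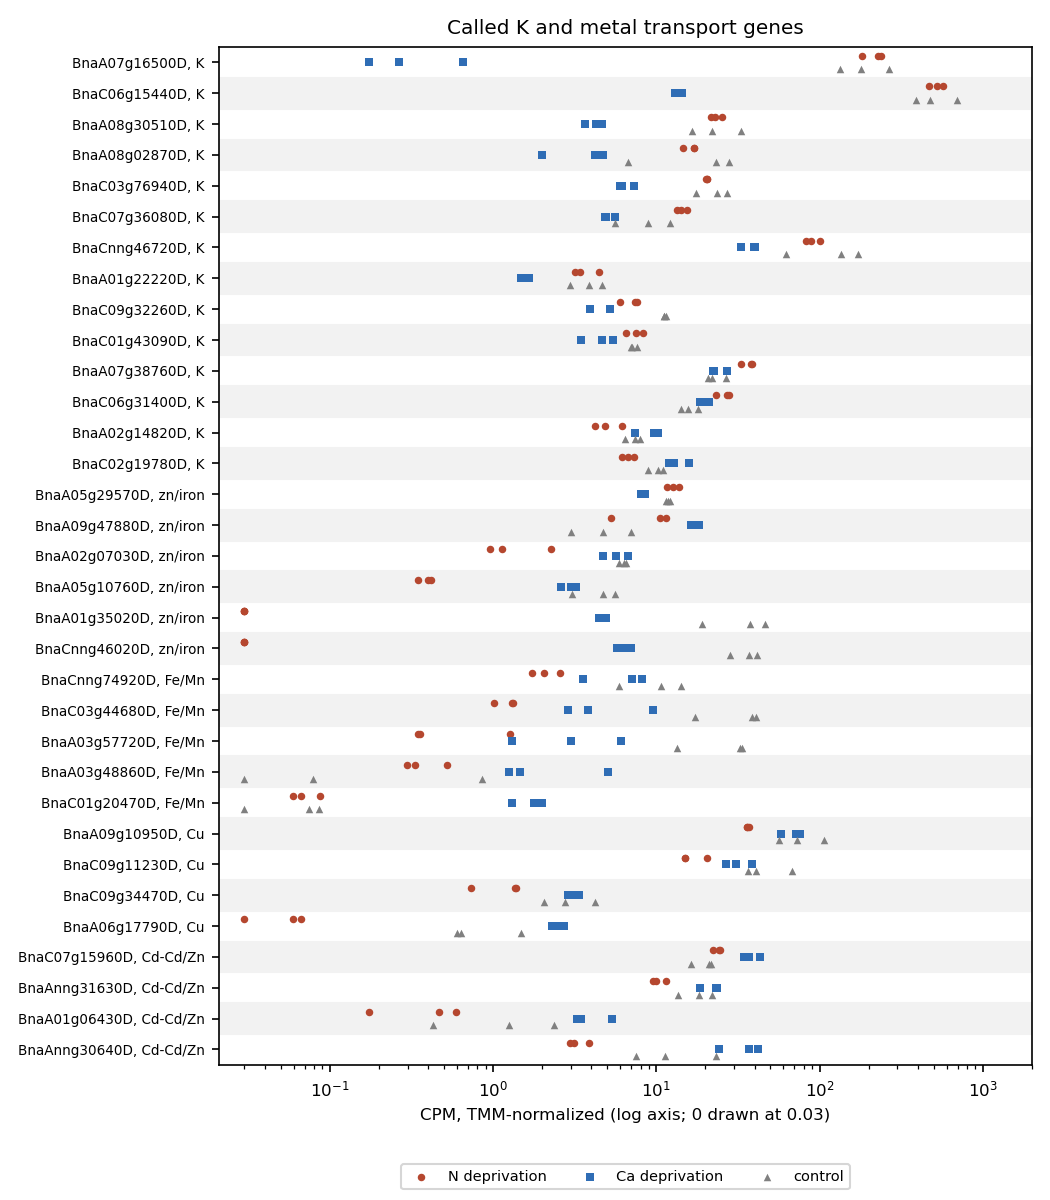
CPM (log axis) of the DEGs of the K, zinc/iron, Fe/Mn, Cu and Cd groups in each library of N deprivation, Ca deprivation and control. Among K genes the N libraries lie above the Ca libraries in 12 of 14, and among the metal genes below them in all but BnaA05g29570D.

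Phosphate transport was mixed. The phosphate permeases were higher under N than under Ca deprivation in 4 and lower in 1 of 10 tested. BnaA06g36740D, a phosphate permease of the type that takes up phosphate, had 1.48, 2.2 and 1.43 CPM under N deprivation, 10.3, 9.02 and 14 CPM under Ca deprivation and 19.9, 16 and 14.7 CPM in the control (-2.70 ± 0.25, adjusted p = 0.000203). BnaC03g75450D, with a major facilitator annotation, was also lower (30.2, 33.3 and 41.3 CPM, against 77.5, 95.9 and 109 CPM under Ca deprivation). The SPX-EXS genes, whose family includes the phosphate exporter PHO1 of Arabidopsis, were lower in 4 of 7 and higher in 0. In the other direction, BnaC08g48150D had 30, 26.4 and 29.6 CPM under N deprivation and 7.49, 6.74 and 7.51 CPM under Ca deprivation (1.98 ± 0.12, adjusted p = 3.83e-05), and BnaC07g34420D, at the count floor under Ca deprivation, was at least 23.7-fold higher. The phosphate permease BnaA03g18250D, chosen after its values were seen because it is too low for the naming rule, had 1.92, 2.73 and 3.63 CPM under N deprivation and 0 counts in the Ca and control libraries, so that it was at least 10.6-fold higher than under Ca deprivation.

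The remaining groups held at most 5 DEGs each, which in the Cl group were 5 of 9 tested (55.6%). For Mg, 4 of 14 genes were DEGs (28.6%, against 20.0% of all genes), and 2 without Ca deprivation replicate 2 or 3. BnaC07g07650D of the NIPA family was higher (7.31, 6.33 and 7.56 CPM, against 3.66, 3.8 and 3.06 CPM under Ca deprivation). BnaAnng21200D was lower (-0.52 ± 0.13), a call lost in 4 of the 6 fits that left out a library. For CorA-like Mg or Zn transporters, 5 of 17 were DEGs (29.4%), with BnaCnng45320D higher (3.92, 3.26 and 3.75 CPM, against 0.958, 1.3 and 1.06 CPM under Ca deprivation). BnaC09g36230D of that group was lower (-0.78 ± 0.20) and passed in only 1 of the 6 fits without a library, and this group held 1 DEG without Ca deprivation replicate 2, 2 without N deprivation replicate 1 or 2 and 3 without Ca deprivation replicate 3 or N deprivation replicate 3. Chloride channels of the voltage-gated type were higher for BnaA02g28670D (1.57 ± 0.14) and lower for BnaA04g11860D (6.7, 6.86 and 10.2 CPM, against 45.5, 33 and 36.8 CPM under Ca deprivation). Of the F group, BnaC04g02030D, of the CrcB family of fluoride exporters, had 11.8, 8.86 and 13.2 CPM under N deprivation, 0.174, 0.217 and 0.199 CPM under Ca deprivation and 0.79, 0.943 and 1.11 CPM in the control (5.75 ± 0.28, adjusted p = 2.2e-05). It was above the control without N and below it without Ca. The sodium/proton exchanger BnaC02g39630D (1.11 ± 0.11) and the Zn gene BnaC04g51630D (0.45 ± 0.10) were higher, and the NRAMP metal transporter BnaAnng14550D of the Mn group was lower (-0.49 ± 0.13), a call lost in 5 of the 6 fits without a library.

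Genes outside the transport lists were described from annotation text for 1003 genes, the rows that could be read of a longer list of the study. Of these, 960 were tested and 594 were DEGs (61.9%), 291 higher and 303 lower under N than under Ca deprivation. Of these 1003 genes, 309 were above and 402 below the control under Ca deprivation in the fit used here, and the others did not differ. Over all genes 12.6% were above and 13.9% below. The selection of the rows read thus leans on the Ca libraries, and their share of DEGs cannot be read against the 20.0% of all genes. The direction follows the same selection: of the family DEGs described next, 54 of the 58 higher under N deprivation were below the control under Ca deprivation, and 72 of the 83 lower were above it, so the counts by family describe these rows and test nothing. Of the 190 genes of 21 families read from this text, 176 were tested, and 141 were DEGs, 58 higher and 83 lower. A difference in a family can mean fewer cells of a type or less RNA per cell, which bulk RNA cannot tell apart.

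For glutamine synthetase, which fixes ammonium into glutamine, 2 of 3 genes were higher, among them BnaA02g03140D with 484, 454 and 491 CPM under N deprivation, 178, 145 and 154 CPM under Ca deprivation and 582, 414 and 448 CPM in the control (1.57 ± 0.13, adjusted p = 0.000116). All 3 glutamate synthase genes were higher, by 0.95 to 1.39, as was the 1 gene with the domains of nitrate reductase, BnaC06g38300D (407, 300 and 428 CPM, against 144, 173 and 198 CPM under Ca deprivation). Amino acid transporters were higher in 7 of 10 and lower in 0, led by BnaC04g38770D (15.8, 14.7 and 18.5 CPM, against 2.79, 2.28 and 2.79 CPM). Both ureide permeases were higher, with BnaA09g28910D at 3.45 ± 0.27, and so were the 3 proton-dependent oligopeptide transporters, a family that includes nitrate transporters in Arabidopsis. Glutamate dehydrogenase, which can release ammonium from glutamate, was split. BnaC02g01610D had 21.4, 22 and 23.6 CPM under N deprivation, against 73.3, 71 and 44.7 CPM under Ca deprivation. BnaA01g33880D had 31.8, 17.2 and 37.8 CPM, against 3.83, 2.01 and 4.52 CPM.

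Class III peroxidases, which oxidize wall phenolics, were lower under N than under Ca deprivation in 11 and higher in 5 of 17. BnaAnng34820D had 2.26, 4.33 and 1.97 CPM under N deprivation, 33.7, 29.3 and 22.9 CPM under Ca deprivation and 2.68, 2.4 and 2.89 CPM in the control (-3.32 ± 0.28, adjusted p = 0.000152). All 7 germin genes were lower (-3.19 to -0.68), as were both tested expansins, which loosen walls, and 7 of 13 pectin-active proteins, with 3 higher. Among these pectin-active proteins, the family 28 glycoside hydrolase BnaC03g53100D had 0.784, 1.6 and 1.73 CPM under N deprivation, against 6.71, 6.96 and 7.71 CPM under Ca deprivation. Chitinases of family 19 were lower in 8 and higher in 2 of 10, with BnaCnng39650D at 17.2, 9.06 and 13.5 CPM under N deprivation, 181, 94.4 and 127 CPM under Ca deprivation and 3.71, 2.49 and 1.48 CPM in the control. In this gene both deprivations exceeded the control. All 8 Kunitz proteinase inhibitors were lower, the most divided being BnaAnng30440D with 0.522, 0.2 and 0.119 CPM under N deprivation and 5.75, 10.6 and 12.4 CPM under Ca deprivation (-5.20 ± 0.47, adjusted p = 0.000195). Lipid transfer proteins were lower in 9 and higher in 2 of 12.

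Other families were divided. Cytochromes P450 leaned the other way, with 13 higher and 4 lower of 19 tested, and BnaA04g24370D, at the count floor under Ca deprivation, had 4.44, 4.26 and 2.86 CPM under N deprivation (at least 14.8-fold higher) and 88.2, 50.7 and 71.1 CPM in the control. EF-hand proteins, which bind Ca, were higher in 5 and lower in 5 of 15. The Ca-dependent protein kinase type gene BnaC09g22660D had 4.44, 3.86 and 4.94 CPM under N deprivation, against 18.9, 14.8 and 14.1 CPM under Ca deprivation and 3.79, 4.8 and 5.11 CPM in the control. Among transcription factors, NAM genes were higher in 4 and lower in 4 of 12, WRKY genes higher in 2 and lower in 3 of 9 and AP2/ERF genes higher in 1 and lower in 4 of 8. Aquaporins (major intrinsic proteins) were higher in 1 and lower in 5 of 11, and multi antimicrobial extrusion proteins higher in 1 and lower in 4 of 8.

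**Figure D5:**
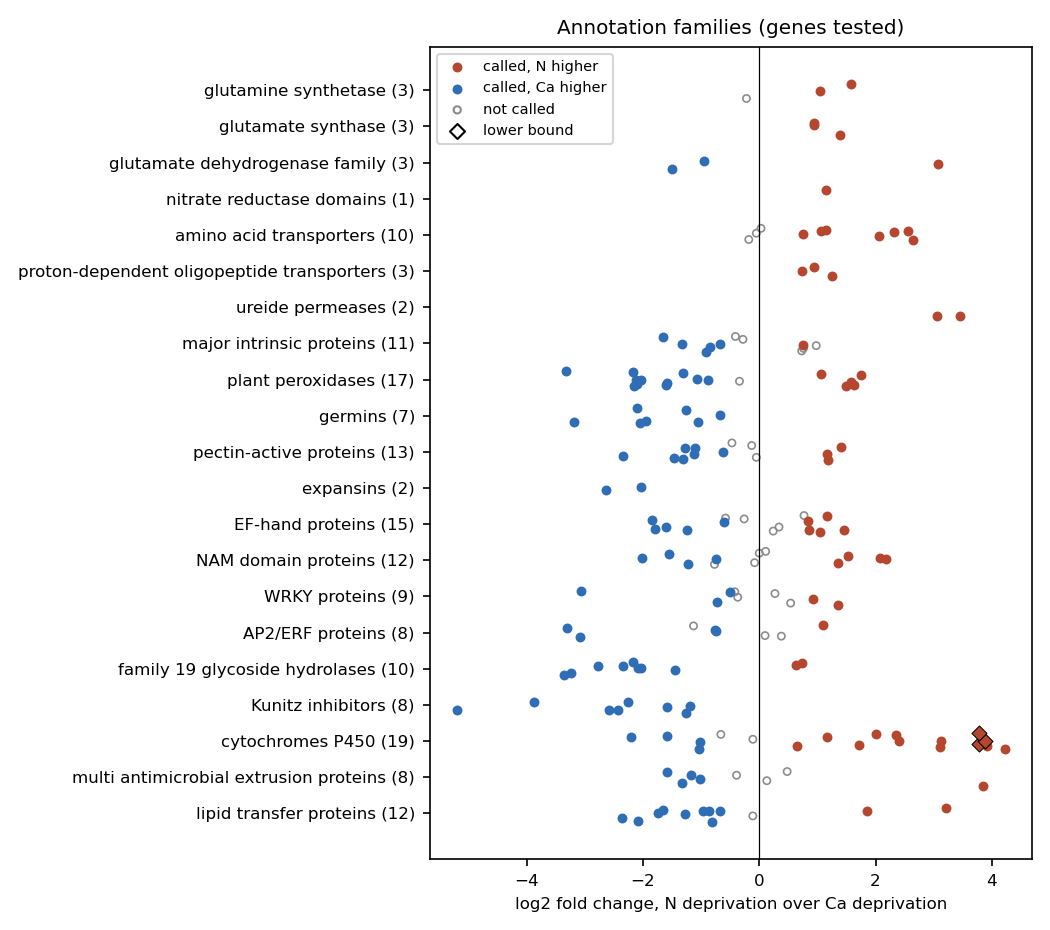
Log2 fold change (N deprivation over Ca deprivation) of each tested gene of the 21 annotation families, with the number tested in brackets. Filled points are DEGs, open points are not, and diamonds are lower bounds. Germins and Kunitz inhibitors lie wholly to the left of 0, and glutamate synthases, ureide permeases and oligopeptide transporters wholly to the right.

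Among single annotated genes with large changes, lower under N than under Ca deprivation were the thaumatin BnaC08g18720D, at the count floor under N deprivation and at 10.2, 10 and 8.37 CPM under Ca deprivation (at least 36.5-fold), and the GDSL lipase BnaC09g16910D, with 1.31, 1.27 and 3.63 CPM under N deprivation, 196, 146 and 130 CPM under Ca deprivation and 0.316, 0.171 and 0.0741 CPM in the control. The lipase was above the control in both deprivations, and the deprivations differed by -6.20 ± 0.38 on the log2 scale. Nicotianamine synthase BnaA09g15990D, which makes a chelator of Fe, Zn and Cu, had 0.348, 1.13 and 0.476 CPM under N deprivation, 29.3, 11.6 and 17 CPM under Ca deprivation and 1.18, 1.29 and 0.889 CPM in the control (-4.83 ± 0.47, adjusted p = 0.000279). The aminotransferase BnaA03g46070D had 9.06, 7.99 and 6.73 CPM, against 242, 146 and 164 CPM under Ca deprivation. BnaC04g18340D, annotated with a HisG domain and a nitrogen regulatory domain, had 2.09, 1.8 and 1.61 CPM under N deprivation, 43.2, 51.9 and 40.9 CPM under Ca deprivation and 13, 5.92 and 9.26 CPM in the control. It was below the control without N and above it without Ca.

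Higher under N deprivation, beside the K and N transporters, was the RING finger gene BnaA02g23440D, with 15.8, 15.9 and 18.3 CPM under N deprivation, 0, 0.109 and 0.266 CPM under Ca deprivation and 20.2, 12.3 and 18.7 CPM in the control (6.88 ± 0.35, adjusted p = 2.2e-05). The oxoglutarate and iron dependent dioxygenases BnaC05g11910D (at least 19-fold higher than the Ca libraries, which were at the count floor) and BnaA02g19830D (6.62, 9.39 and 4.23 CPM, against 0, 0.272 and 0.199 CPM) were below the control in both deprivations, and in the control BnaA02g19830D had 97.6, 71.9 and 81.1 CPM. Some genes with large changes had no annotation text in the rows read here, though the study may annotate them. Among these, BnaC06g43150D was at least 50.9-fold and BnaA08g10380D at least 23.7-fold higher under N deprivation. BnaC09g50070D was at least 33.6-fold lower, each of these genes against a group at the count floor. BnaA01g16690D, at the count floor under N deprivation and in the control, had 15.3, 3.91 and 5.78 CPM under Ca deprivation, with Ca deprivation replicate 1 well above the other Ca libraries.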

How the data were processed

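Root libraries of B. napus were made and sequenced by the study, and the authors aligned the trimmed read pairs with STAR, using annotation V5 of Genoscope. The deposited values are whole-number counts of pairs per gene and are not normalized. Read pairs mapping to several places had been left out, so near-identical A and C genome copies are counted only by reads that tell them apart. Each deposited file holds counts without regard to strand and for each strand, and the reverse strand was used. Gene names, sequences and coordinates are not used here, since the identifiers matched no reference given.

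Groups were taken from the sample titles. The 6 libraries were fitted in edgeR 4.0.16 (R 4.3.3) with filterByExpr, TMM and the quasi-likelihood test, and p-values were adjusted by Benjamini-Hochberg over the genes tested (limit 0.05). Values against the control come from a fit of all 21 libraries of the 10-day harvest. Each standard error was obtained as the size of the log2 fold change over the root of its F value. Where no library of a group had more than 3 counts of a gene, only a lower bound is given, the mean of the other group over the largest CPM that 3 counts make in those libraries (0.163 to 0.261 CPM per library). The standard errors include the spread between libraries, whereas the floors cover counting error only. The study describes its replicates as separate pools of plants.

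The members, lists and tests were chosen with earlier results of these data known. Genes were named by a rule: DEGs averaging 1 or more in log2 CPM with all 3 N libraries on the same side of all 3 Ca libraries, those with the largest changes in each list. Transport groups were divided further by annotation afterwards, without a test. Alternatives were the likelihood ratio test, DESeq2 1.42.0, scaling by RLE or by the upper quartile, omitting the filter, CPM above 1 in 50% of the libraries, all 21 or 33 libraries, the replicate number as a block, counts without regard to strand, a limit of 0.01 for the adjusted p, a minimum difference of 1 on the log2 scale and leaving out each library. The scripts were tested on simulated data. Versions used were Python 3.11.15, pandas 2.3.3, numpy 2.4.6 and matplotlib 3.10.9.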

Additional observations from a re-analysis of the deposited data

Results flagged for a closer look

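Read pairs that fell on more than 1 gene, which are left out of the gene counts, took a larger share in both deprivations than in the control: at least 0.173% in the N libraries and at least 0.18% in the Ca libraries, against at most 0.17% in the control libraries. This was not particular to N and Ca deprivation. The K libraries (0.176% to 0.178%) and the Mg libraries (0.174% to 0.184%) also exceeded the control, and the P and S libraries overlapped it.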

How the results depend on the processing

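Of 97 genes named by the rule, 0 changed direction under any alternative fit and 9 missed the threshold under at least 1. The 2 stricter limits, an adjusted p of 0.01 and a difference of 1 on the log2 scale, are not part of this count. Some named genes fail them, among them BnaC04g51630D (log2 fold change 0.45, adjusted p = 0.0128 by the quasi-likelihood test). The 142 transport DEGs ranged from 126 to 143 with a library left out, the 30 sulphur DEGs from 25 to 31 and the 141 family DEGs from 134 to 142. Both lists and the families stayed within 1.5 times their counts in every alternative. Over all genes, the 10607 DEGs were 5445 at an adjusted p of at most 0.01 (2308 higher, 3137 lower under N deprivation) and 5843 with a difference of 1 or more on the log2 scale (2469 and 3374), and 7252 to 9507 with a library left out (3055 to 4410 higher, 4056 to 5346 lower). The 44.5% of DEGs higher under N deprivation were 48.2% in the fit of 21 libraries, 50.1% in that of 33, 48.9% with upper-quartile normalization, 42.3% at the fold threshold and 41.6% to 46.5% with a library left out. The median log2 fold change of all genes was 0.00 with TMM, 0.01 with RLE and 0.04 with upper-quartile scaling.

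DEGs against the control numbered 11362 for N deprivation, 6439 when only the 6 libraries compared were fitted and 6404 to 12210 with a library left out (6404 without N deprivation replicate 3, 7304 and 7542 without control replicate 2 and 3). For Ca deprivation they numbered 15013, and 10716 to 14435 with a library left out.

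Whether the replicate numbers pair the libraries was not settled. Deviations of same-numbered N and Ca libraries correlated weakly, at 0.0253 to 0.0467, and those of the other pairs at -0.0696 to 0.0349. N replicates 2 and 3 correlated best with the Ca library of the same number, and N replicate 1 with Ca replicate 2. With the replicate number as a block the comparison gave 9198 DEGs, with 136 transport and 28 sulphur genes, and 10781 and 14615 against the control. The cause of these shifts was not tested. Genes under 3 counts cannot be measured at this depth, and 3 libraries a group limit the precision.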

Other observations

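The other macronutrient deprivations of the same harvest give a scale for the genes that part N from Ca deprivation. The K transporter BnaA07g16500D averaged 432 ± 111 CPM under K deprivation, 126 ± 31 under Mg, 97.9 ± 32.1 under S and 11.9 ± 3.57 under P deprivation (SD, n = 3 each), so that P deprivation lay nearest to Ca deprivation. The sodium/solute symporter BnaC09g18770D averaged 51.5 ± 9.51 CPM under K, 61 ± 13.2 under Mg, 90.8 ± 12.2 under S and 2.24 ± 0.654 under P deprivation. The N transport gene BnaA08g24500D averaged 36.7 ± 21.3 CPM under K, 37.7 ± 25 under Mg, 61.1 ± 17.4 under S and 0.0499 ± 0.0864 under P deprivation. The zinc/iron permease BnaCnng46020D, at 0 under N deprivation, averaged 103 ± 56.9 CPM under K deprivation and 1.86 ± 1.6 CPM under P deprivation. The SULTR1.2 gene BnaA07g33860D averaged 112 ± 12.5 CPM under S deprivation and 20.5 ± 5.15 CPM under P deprivation. These means were chosen after the values were seen and carry no test.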
